A study of Mus musculus with 14 samples.

Results

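Interferons reach the nucleus through a short chain of proteins, and 10 transcripts of that chain were followed in mouse microglia, the resident macrophages of the brain. They encode the receptor chains for type I interferon (Ifnar1, Ifnar2) and for interferon-gamma (Ifngr1, Ifngr2), the kinases bound to those chains (Jak1, Jak2, Tyk2), the transcription factors Stat2 and Stat3, and the feedback inhibitor Socs1. The genes were chosen by name, and each had 1 array row annotated with a single gene symbol. They are 10 of the 19938 genes measured.

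In this pathway, binding of interferon brings 2 receptor chains together, and the kinases on their inner tails phosphorylate each other, the receptor and then the STAT proteins. Type I interferon signals through JAK1 and TYK2 to a complex that holds STAT2 and IRF9 and binds the interferon-stimulated response element (ISRE) of antiviral genes. Interferon-gamma signals through JAK1 and JAK2 to genes with the gamma-activated site (GAS), while STAT3 is best known for relaying signals of the IL-6 family. SOCS1 binds the kinases and ends the signal, and microglia are able to respond to both interferon types.

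The samples were RNA of microglia sorted from the cortex of the operated side of mice (C57BL/6J males, 12 to 14 weeks old), each hybridised to an Affymetrix Mouse Gene 1.0 ST array. Mice with the genotype TLR4-/-, which by that label lack the receptor for bacterial lipopolysaccharide, and wild-type mice had either I/R, in which a filament closed the middle cerebral artery for 15 min and blood flowed again for 72 h, or sham surgery. The groups were TLR4-/- I/R (arrays B, C and D), TLR4-/- sham (arrays A, B and D), wild-type I/R (arrays A to D) and wild-type sham (arrays A to D), with n = 3 in each TLR4-/- group and n = 4 in each wild-type group. The study's title asks about interferon-stimulated genes after I/R, and the knockout arm asks what TLR4 adds. The sources used here do not explain the abbreviation IPC in the titles of the treated samples, the markers of the sort or the way the TLR4-/- allele was made. Whether each array stands for its own animal is not stated. The p-values thus rest on how far the samples of a group lie apart, which may be partly technical.

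All values are log2 expression after RMA, a normalization that sets the arrays to a common distribution, and a difference of 1 is a 2-fold difference. Array medians lay between 4.93 and 5.12. A background level of 4.67 was taken from olfactory receptor genes, and all 10 members lay above it in every group. The row for Tlr4 averaged 8.02 in TLR4-/- I/R, 8.32 in TLR4-/- sham, 8.30 in wild-type I/R and 8.78 in wild-type sham. It combines probes along the transcript, so without the structure of the allele it is no check of the genotype, and TLR4-/- below means the arrays labelled so. All 3 TLR4-/- I/R arrays and all 4 wild-type sham arrays correlated more, across genes, with the group of the other genotype after the same surgery than with their own group, and 0 of the other 7 arrays did. The gap in mean r was largest for TLR4-/- I/R array D (0.991 against 0.987) and wild-type sham array C (0.989 against 0.985). The calls of members were the same when these 2 arrays were left out together, an alternative chosen after the data were seen. Stat2 then differed by 1.40 (adjusted p = 0.00494) between I/R and sham in TLR4-/- and by 1.06 (adjusted p = 0.00907) in wild type, and Ifngr1 by -0.55 (adjusted p = 0.0268) and -0.46 (adjusted p = 0.0271).

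Stat2 and Socs1 are shown by their promoters because both carry ISRE letters before the start of transcription, while Stat2 was called after I/R and Socs1 was not. The 250 bases before each start are given from RefSeq (GRCm38.p6), 5′ to 3′ on the strand of the gene, with the ISRE matches in capitals. Stat2 lies on the plus strand at chr10:128270248-128270497 and Socs1 on the minus strand at chr16:10785537-10785786.
Stat2: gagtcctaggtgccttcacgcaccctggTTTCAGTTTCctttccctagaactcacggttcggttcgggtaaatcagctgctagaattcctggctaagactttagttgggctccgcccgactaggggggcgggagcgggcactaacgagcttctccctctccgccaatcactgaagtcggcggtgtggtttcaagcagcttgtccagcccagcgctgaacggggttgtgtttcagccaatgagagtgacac
Socs1: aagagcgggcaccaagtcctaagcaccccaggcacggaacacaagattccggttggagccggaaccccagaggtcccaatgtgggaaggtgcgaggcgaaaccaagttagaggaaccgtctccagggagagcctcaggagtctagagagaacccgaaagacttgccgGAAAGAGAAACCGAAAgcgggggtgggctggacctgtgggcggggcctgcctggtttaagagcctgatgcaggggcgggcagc
The search used GAAA, any 2 bases and GAAA again for the ISRE, and TTCNNNGAA for the GAS, on both strands of 300-base windows (250 bases before and 50 after the start), and all 10 members had such a window. Stat2 held 1 ISRE match, on the reverse strand, with its leftmost base at -222. Socs1 held 2 overlapping matches on the given strand, at -83 and -77. Of the 32851 RefSeq promoters, 3.443% held the ISRE letters and 8.298% the GAS letters. A GAS match was found in Ifnar1 at -5 and in Ifnar2 at -214, and no match of either kind in the windows of Ifngr1, Ifngr2, Jak1, Jak2, Tyk2 and Stat3. These matches describe letters only.

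After I/R, Stat2 rose and Ifngr1 fell in both genotypes. The type I receptor chains, Ifngr2, the kinases and Socs1 did not pass the test in either genotype. Stat3 was 0.34 higher in TLR4-/- and 0.24 higher in wild type, and passed only when the changes of both genotypes were averaged. By limma at an adjusted p under 0.05, 2 of the 10 members were called between I/R and sham in TLR4-/-, where 8.17% of all genes were called, and 2 of 10 in wild type, where 9.78% were called. For the mean of the changes in both genotypes, 3 of 10 were called, against 18.1% of all genes. In each genotype 1 member was called higher (5.04% of all genes in TLR4-/- and 6.15% in wild type) and 1 lower (3.13% and 3.63%), and for the mean 2 were higher (9.61%) and 1 lower (8.52%). The median change of the 10 members was -0.02 in TLR4-/- and 0.01 in wild type, beside medians over all genes of -0.03 and -0.06. In bulk RNA of sorted cells, fewer cells of a type and less RNA per cell cannot be told apart.

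**Figure D1:**
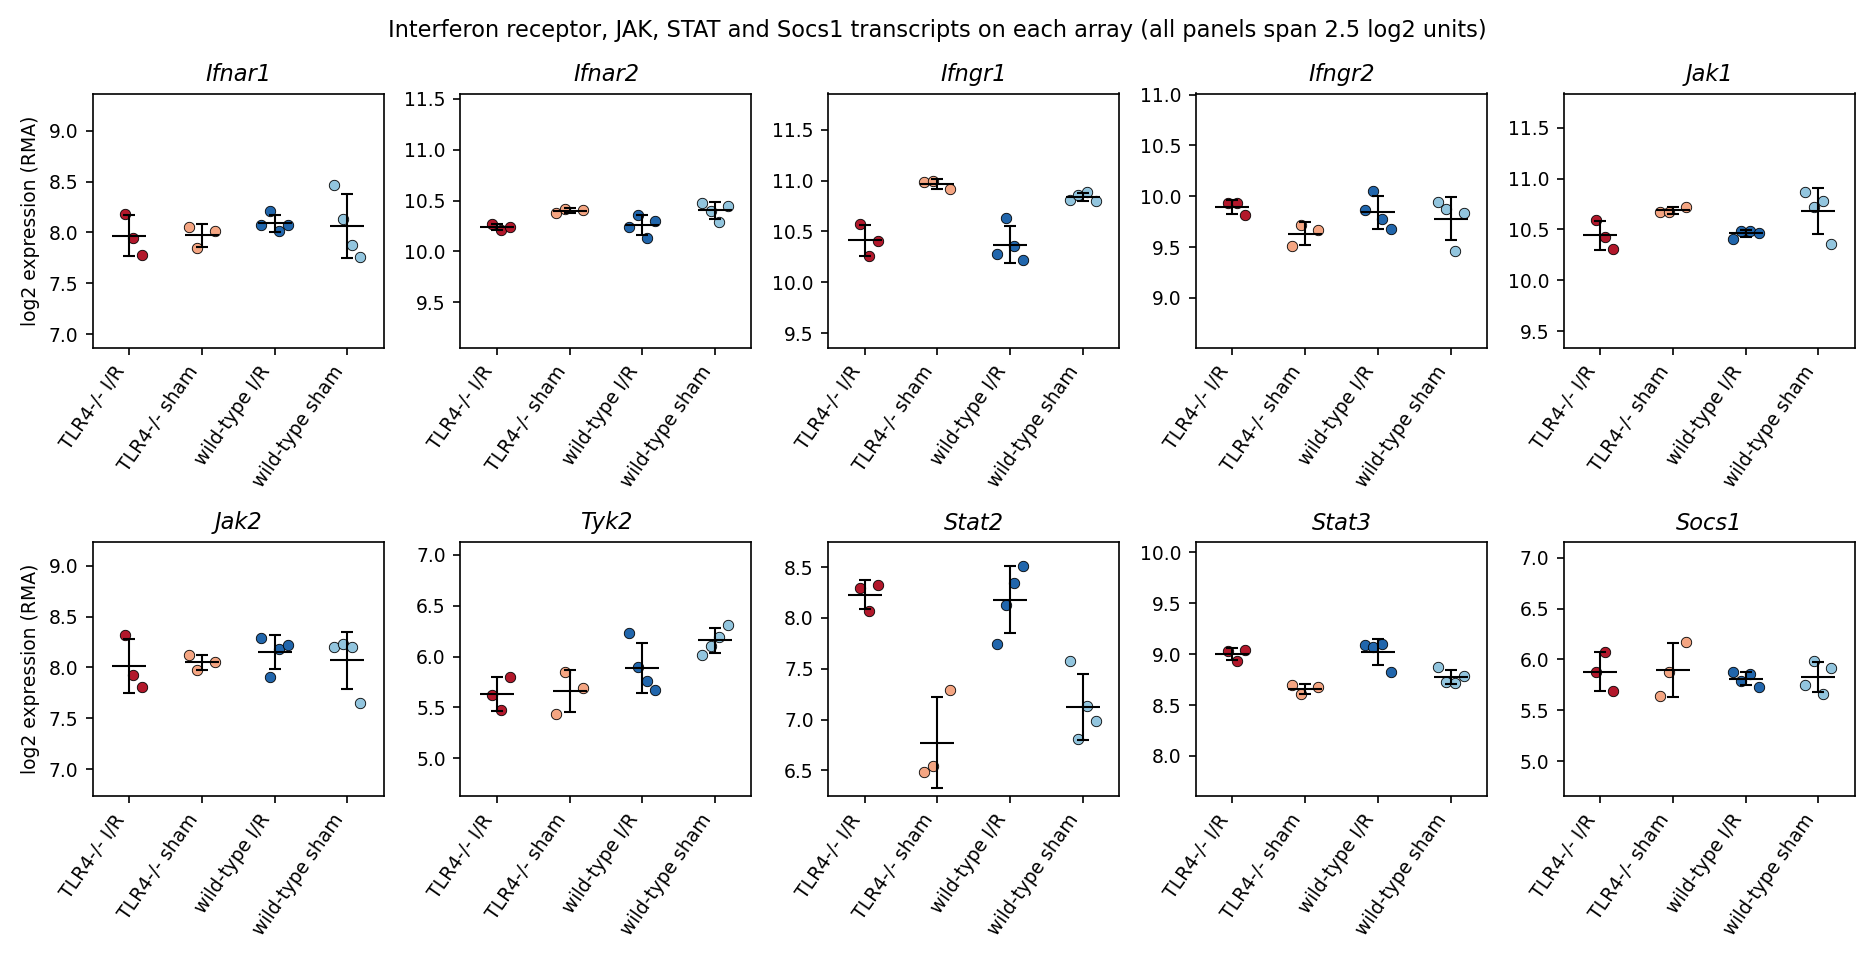
Log2 expression (vertical axis) of the 10 members on each array, in the 4 groups; points are arrays, horizontal bars are group means and error bars are SD (n = 3 or 4). All panels span the same number of log2 units. The I/R arrays lie above the sham arrays for Stat2 (lowest I/R array 7.74, highest sham array 7.57) and below them for Ifngr1 (highest I/R array 10.63, lowest sham array 10.80).

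Ifngr1, the ligand-binding chain of the interferon-gamma receptor, read 10.57, 10.26 and 10.40 on the TLR4-/- I/R arrays B, C and D, against 10.99, 10.997 and 10.91 on the TLR4-/- sham arrays A, B and D. On the wild-type I/R arrays A to D it read 10.28, 10.63, 10.36 and 10.21, against 10.81, 10.86, 10.89 and 10.80 on the wild-type sham arrays. Every I/R array was below every sham array, in each genotype and across both. The change was -0.56 (SE 0.12, 1.47-fold lower, adjusted p = 0.00851 by limma) in TLR4-/- and -0.47 (SE 0.11, 1.39-fold lower, adjusted p = 0.00803) in wild type. Without TLR4-/- I/R array C the change in TLR4-/- was -0.48 with an adjusted p of 0.0509, above the threshold. The groups ran, from high to low, TLR4-/- sham (10.97 ± 0.05), wild-type sham (10.84 ± 0.04), TLR4-/- I/R (10.41 ± 0.16) and wild-type I/R (10.37 ± 0.18; mean ± SD). Neighbours of the same surgery were not called different (adjusted p = 0.942 after sham and 0.924 after I/R).

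Ifngr2, the signalling chain of the same receptor, did not follow Ifngr1. It ranged from 9.82 to 9.93 in TLR4-/- I/R, against 9.51 to 9.72 in TLR4-/- sham, which did not overlap, and from 9.67 to 10.06 in wild-type I/R, against 9.47 to 9.94 in wild-type sham, which did. The differences were 0.26 (95% interval -0.03 to 0.55, adjusted p = 0.318) and 0.06 (-0.19 to 0.31, adjusted p = 0.806). Non-overlap was common among all genes between the TLR4-/- groups of 3 arrays: 23.6% of genes had it, and 6 of the 10 members did (Stat2, Stat3 and Ifngr2 higher, Ifngr1, Ifnar2 and Jak1 lower). In wild type 15.6% of genes and 2 of the 10 members, Stat2 and Ifngr1, did not overlap.

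Ifnar1, the type I interferon receptor chain that binds TYK2, gave group means within 0.12 of each other. It ranged from 7.78 to 8.18 in TLR4-/- I/R and from 7.84 to 8.05 in TLR4-/- sham. The wild-type arrays ranged from 8.01 to 8.21 after I/R and from 7.76 to 8.47 after sham, so all groups overlapped. Its change after I/R was -0.001 (95% interval -0.34 to 0.34) in TLR4-/- and 0.03 (-0.27 to 0.33) in wild type, which leaves a change of up to about 0.34 in either direction unresolved.

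Ifnar2, the high-affinity chain for the same ligands, was tightly measured. The TLR4-/- I/R arrays read 10.27, 10.21 and 10.24, against 10.38, 10.42 and 10.41 in TLR4-/- sham, with no overlap. Wild-type I/R arrays read 10.24, 10.35, 10.13 and 10.30, against 10.47, 10.40, 10.29 and 10.44 in wild-type sham, where the ranges overlapped. The differences were small in both genotypes, -0.16 (adjusted p = 0.425) and -0.15 (adjusted p = 0.367), and their mean of -0.15 (SE 0.07) had an unadjusted p of 0.0381 and an adjusted p of 0.140. In the RefSeq gene table Ifnar2, Il10rb, Ifnar1 and Ifngr2 are neighbours on chromosome 16 in that order. Il10rb, a chain of the IL-10 receptor, differed by -0.03 in TLR4-/- and -0.23 in wild type (adjusted p = 0.950 and 0.396), so none of the 4 neighbours was called.

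Jak1, the kinase shared by both interferon receptors, had lower means after I/R without passing the test. It read 10.59, 10.43 and 10.31 in TLR4-/- I/R, against 10.67, 10.67 and 10.72 in TLR4-/- sham. In wild type it read 10.41, 10.49, 10.49 and 10.46 after I/R, against 10.87, 10.72, 10.78 and 10.36 after sham. The TLR4-/- groups did not overlap, and in wild type sham array D, the lowest of its group, lay below all 4 I/R arrays. The differences were -0.25 (SE 0.13, adjusted p = 0.313) and -0.22 (SE 0.11, adjusted p = 0.261), and their mean was -0.23 (SE 0.09, adjusted p = 0.0721). The mean passed the threshold without wild-type sham array D (-0.29, adjusted p = 0.0130), without TLR4-/- I/R array B (-0.27, adjusted p = 0.0483) and with a trended, robust variance (adjusted p = 0.0443), and over all the alternatives tried its size ranged from -0.29 to -0.18.

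Jak2, which serves the interferon-gamma receptor, ranged from 7.80 to 8.32 in TLR4-/- I/R, against 7.98 to 8.12 in TLR4-/- sham. In wild type it ranged from 7.91 to 8.29 after I/R and from 7.65 to 8.23 after sham. Its differences were -0.03 (95% interval -0.39 to 0.32) and 0.08 (-0.23 to 0.39). Tyk2, the kinase on IFNAR1, read 5.62, 5.47 and 5.80 in TLR4-/- I/R and 5.44, 5.85 and 5.69 in TLR4-/- sham. The wild-type arrays read 6.23, 5.90, 5.76 and 5.67 after I/R and 6.02, 6.11, 6.19 and 6.31 after sham. Both pairs overlapped, and the differences between I/R and sham were -0.03 in TLR4-/- (adjusted p = 0.950) and -0.27 in wild type (adjusted p = 0.251).

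**Figure D2:**
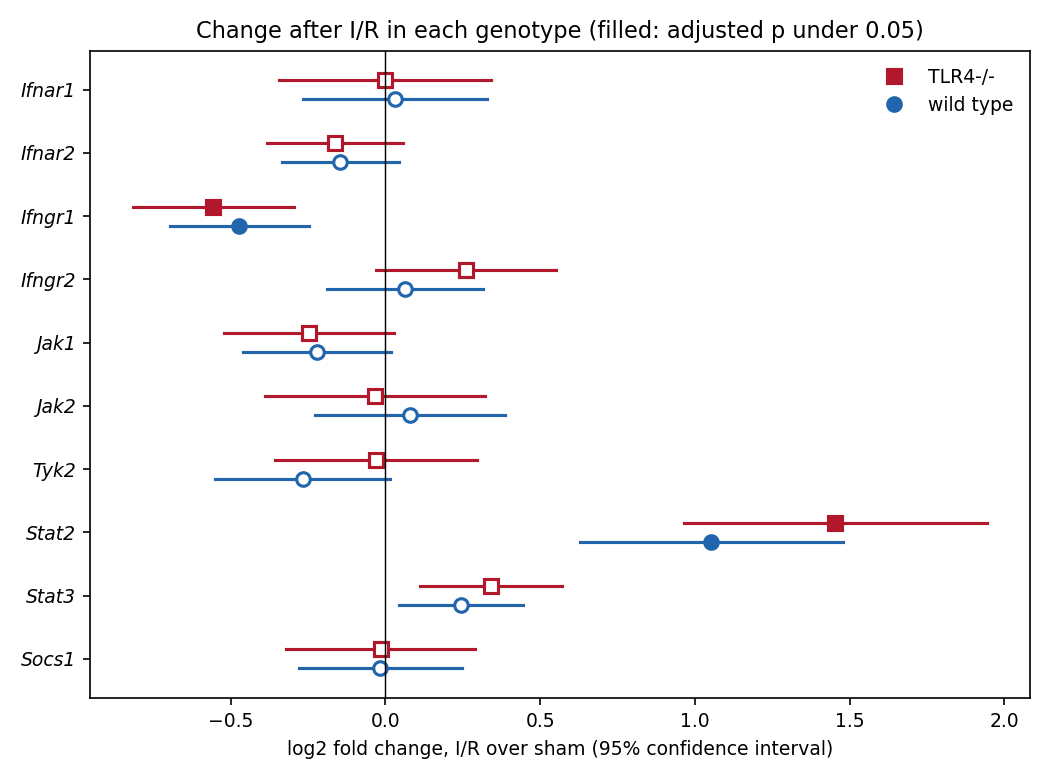
Log2 fold change of I/R over sham (horizontal axis) for each member, with 95% confidence intervals from limma; squares are TLR4-/-, circles are wild type, and filled marks have an adjusted p under 0.05. Stat2 (1.45 and 1.05) lies to the right and Ifngr1 (-0.56 and -0.47) to the left of 0 in both genotypes, and the 2 intervals of each member overlap.

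Stat2, the STAT used by type I interferon, had the largest change of the 10 members in both genotypes. It read 8.29, 8.07 and 8.33 on the TLR4-/- I/R arrays, against 6.48, 6.54 and 7.29 on the TLR4-/- sham arrays. The wild-type I/R arrays A to D read 7.74, 8.13, 8.34 and 8.51, against 7.57, 6.81, 7.14 and 6.98 in wild-type sham. No I/R array overlapped a sham array of either genotype, although wild-type I/R array A and wild-type sham array A came within 0.17 of each other. The change was 1.45 (SE 0.23, 2.74-fold, adjusted p = 0.000646 by limma) in TLR4-/- and 1.05 (SE 0.20, 2.08-fold, adjusted p = 0.00229) in wild type. Over all the alternatives it ranged from 1.31 to 1.71 in TLR4-/- and from 0.94 to 1.20 in wild type, and was called in each.

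The Stat2 groups ran, from high to low, TLR4-/- I/R (8.23 ± 0.14), wild-type I/R (8.18 ± 0.33), wild-type sham (7.13 ± 0.33) and TLR4-/- sham (6.77 ± 0.45; mean ± SD). Neighbours of the same surgery differed by 0.05 after I/R (adjusted p = 0.958) and by -0.35 after sham (adjusted p = 0.940) in TLR4-/- against wild type, neither of them called. Within TLR4-/- sham, array D stood 0.75 above the next array.

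Stat3, which serves IL-6 family and IL-10 receptors, read 9.03, 8.94 and 9.04 in TLR4-/- I/R, against 8.69, 8.61 and 8.67 in TLR4-/- sham. In wild type it read 9.09, 9.07, 9.10 and 8.82 after I/R, against 8.87, 8.73, 8.72 and 8.79 after sham. The TLR4-/- groups did not overlap, and in wild type I/R array D fell within the sham range while the other 3 I/R arrays lay above it. The differences were 0.34 (SE 0.11, adjusted p = 0.0653) and 0.24 (SE 0.09, adjusted p = 0.123). Their mean, 0.29 (SE 0.07, 1.23-fold, adjusted p = 0.00837), was called higher. Stat3 sits beside Stat5a and Stat5b on chromosome 11 in the RefSeq table, and Stat5b, a STAT of growth factor and GM-CSF receptors, fell by 0.55 in TLR4-/- (adjusted p = 0.0372) and by 0.51 in wild type (adjusted p = 0.0211).

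Socs1 showed no difference that the test could resolve. It read 5.88, 6.07 and 5.69 in TLR4-/- I/R, against 5.64, 5.88 and 6.17 in TLR4-/- sham. The wild-type arrays read 5.87, 5.79, 5.85 and 5.73 after I/R, against 5.75, 5.99, 5.66 and 5.91 after sham. All 4 groups overlapped, and the difference was -0.02 in each genotype (95% intervals -0.32 to 0.29 in TLR4-/- and -0.28 to 0.25 in wild type). The mean of both, -0.02, had an interval of -0.22 to 0.19, which leaves changes of up to that size in either direction unresolved. In the same RNA the difference for Stat2, whose promoter also holds the ISRE letters printed above, had a lower bound of 0.96 in TLR4-/- and 0.63 in wild type.

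Between the genotypes no member was called, either after I/R, where 0.0201% of all genes were called, or after sham, where 0.00502% were. At an unadjusted p under 0.05 by limma there were 0 members after I/R (8.47% of all genes) and 1 after sham (5.24%). That member was Tyk2, which differed by -0.50 in TLR4-/- sham against wild-type sham (SE 0.14, unadjusted p = 0.00327, adjusted p = 0.920), with all 3 TLR4-/- arrays below all 4 wild-type arrays. After I/R the Tyk2 difference was -0.26 (adjusted p = 0.632) and the ranges overlapped. No member was free of overlap between genotypes after I/R (9.34% of all genes), and 3 members were after sham (5.50% of all genes): Ifngr1 higher, and Tyk2 and Stat3 lower, in TLR4-/-.

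The change after I/R was not called different between genotypes for any member by limma (0 of 10 called, 0% of all genes called). At an unadjusted p under 0.05 there were 0 of 10, beside 3.82% of all genes. The TLR4-/- change minus the wild-type change was 0.40 for Stat2 (95% interval -0.25 to 1.05) and -0.08 for Ifngr1 (-0.43 to 0.26). For the other 8 members it lay between -0.11 (Jak2) and 0.24 (Tyk2). The Stat2 interval holds 0 and reaches 1.05, so whether its change differs between genotypes is not settled by these arrays.

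The rest of the pathway was read from lists chosen with earlier results of these data known. Of 21 interferon ligand genes listed, 16 were measured, and 7 of the 16 had a mean over the arrays above background. By limma 0 of the 16 were called in TLR4-/-, in wild type or for the mean of both. At an unadjusted p under 0.05 there were 1, 1 and 2, beside 20.3%, 22.6% and 29.6% of all genes. For ligand genes at background signal, the lack of a call does not show that they stayed unchanged. Ifnb1 and Ifng, singled out as the main type I and type II ligands of the list after their values were seen, had means below the background level in all 4 groups. Ifnb1 read 3.13, 4.64 and 3.34 in TLR4-/- I/R, against 3.06, 2.89 and 2.98 in TLR4-/- sham, and 3.04, 3.14, 3.08 and 4.47 in wild-type I/R, against 2.70, 2.87, 3.04 and 3.003 in wild-type sham. In each genotype 1 I/R array was high and the others lay near the sham values.

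Among the partners of the STATs, Irf9, the DNA-binding partner of STAT2, differed by 0.42 in TLR4-/- (adjusted p = 0.153) and 0.40 in wild type (adjusted p = 0.102). It was called for the mean of both (0.41, adjusted p = 0.0155), but not with TLR4-/- I/R array D and wild-type sham array C both left out (0.32, adjusted p = 0.0793). Of the 5 genes measured in that list, 1 fell in TLR4-/- (Stat5b), beside 3.13% of all genes. In wild type 2 of the 5 fell (Stat5b and Stat6), beside 3.63% of all genes. Stat6, the STAT of the IL-4 receptor, fell by 0.39 in wild type (adjusted p = 0.0266) and differed by -0.29 in TLR4-/- (adjusted p = 0.185). Of the other 7 SOCS family genes 0 were called by limma in either genotype. At an unadjusted p under 0.05 there were 2 in TLR4-/- (20.3% of all genes) and 1 in wild type (22.6%). Socs3, the inhibitor of IL-6 family receptors, differed by 0.57 (adjusted p = 0.133) and 0.60 (adjusted p = 0.0562), and was called for the mean of both genotypes (0.58, adjusted p = 0.00848).

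Usp18, a protease that also blocks type I receptor signalling at IFNAR2, rose by over 2 log2 units in both genotypes. It read 8.87, 8.82 and 8.92 in TLR4-/- I/R, against 5.44, 5.63 and 5.19 in TLR4-/- sham, and 7.53, 8.57, 8.52 and 9.06 in wild-type I/R, against 6.61, 6.31, 6.21 and 6.44 in wild-type sham. No I/R array overlapped a sham array, and wild-type I/R array A was the lowest of its group, as it was for Stat2. The change was 3.45 (SE 0.26, adjusted p = 2.18e-07) in TLR4-/- and 2.02 (SE 0.22, adjusted p = 9.52e-06) in wild type. Their difference of 1.43 was not called (unadjusted p = 0.000708, adjusted p = 0.616). Of the 12 such brakes measured, 1 rose and 2 fell in TLR4-/-, and 2 rose and 1 fell in wild type. Over all genes, 5.04% were called higher and 3.13% lower in TLR4-/-, and 6.15% and 3.63% in wild type. Sh2b3, an adaptor that restrains JAK2, fell by 0.39 in each genotype (adjusted p = 0.0276 and 0.00965), and Pias3, an inhibitor of STAT3, fell by 0.85 in TLR4-/- (adjusted p = 0.0206) and differed by -0.14 in wild type (adjusted p = 0.718). Dusp3, a phosphatase, differed by 0.49 in TLR4-/- (adjusted p = 0.115) and rose by 0.52 in wild type (adjusted p = 0.0439, and 0.134 with both arrays left out). The difference of the changes between genotypes was called for 0 of the 12, with 2 at an unadjusted p under 0.05 (3.82% of all genes).

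Ifngr1 was not the only chain of a JAK-using receptor that was lower after I/R. Of 16 other chains measured, 5 fell and 1 rose in TLR4-/-, and 4 fell and 1 rose in wild type, beside the shares of all genes given above. Il6st, the shared signalling chain of the IL-6 family, fell by 0.49 in TLR4-/- (adjusted p = 0.0160) and by 0.57 in wild type (adjusted p = 0.00146). Il6ra, the IL-6 binding chain, fell by 1.06 and 0.82, Lifr by 0.88 and 0.95 and Il7r by 1.02 and 0.71 in TLR4-/- and wild type (adjusted p between 0.00107 and 0.0148). Csf3r, the G-CSF receptor, fell by 0.55 in TLR4-/- (adjusted p = 0.0472) and differed by -0.37 in wild type (adjusted p = 0.117), and the difference between genotypes was not called. Csf2ra, the GM-CSF binding chain, rose by 0.59 in TLR4-/- (adjusted p = 0.0429, and 0.0637 with both arrays left out) and by 0.67 in wild type (adjusted p = 0.00732). Il21r was not called in wild type (adjusted p = 0.0874), but was called lower there with both arrays left out (-0.47, adjusted p = 0.0275).

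**Figure D3:**
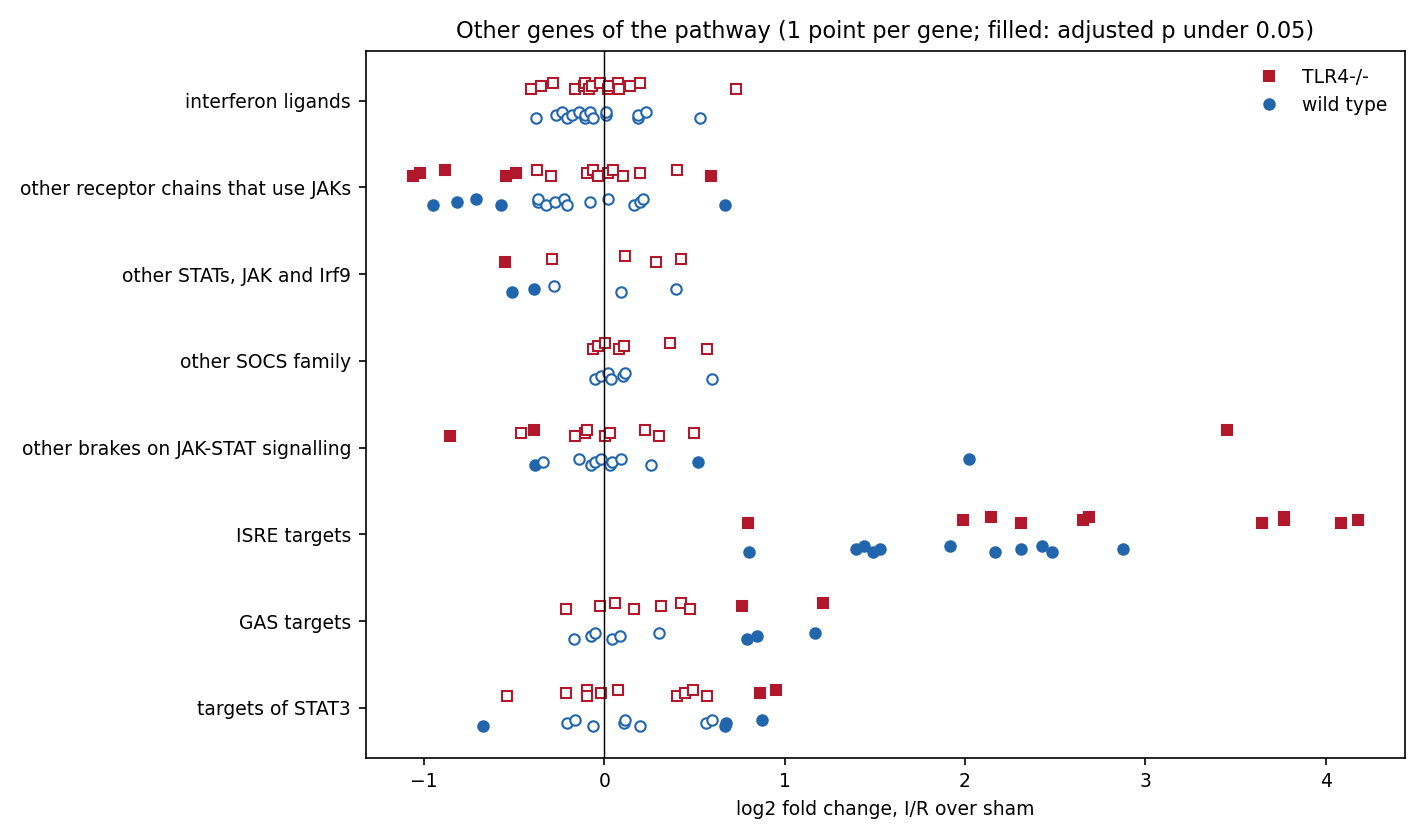
Log2 fold change of I/R over sham (horizontal axis) for the other genes of the pathway, grouped by list; each point is a gene, red squares are TLR4-/-, blue circles are wild type, and filled marks have an adjusted p under 0.05. All 11 ISRE target genes lie to the right of 0 in both genotypes, while ligand genes have no filled mark.

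Downstream, the targets were read by the element they are known for. All 11 measured ISRE targets rose in both genotypes, with medians of 2.69 in TLR4-/- and 1.92 in wild type. Cmpk2, a nucleotide kinase, averaged 4.86 in TLR4-/- I/R and lay below background in the other 3 groups, so no size is given for it. The other 10 rose by 1.99 to 4.18 in TLR4-/- and by 1.40 to 2.87 in wild type, although Ifit1 was below background in TLR4-/- sham (4.47). The difference of the changes between genotypes was called for 0 of the 11, with 8 at an unadjusted p under 0.05 (3.82% of all genes). Between genotypes directly, 0 of 11 were called after either surgery. At an unadjusted p under 0.05 there were 1 after I/R (8.47% of all genes) and 8 after sham (5.24%). The list's median difference, TLR4-/- against wild type, was 0.39 after I/R and -0.60 after sham. Ifit2, which blocks translation of viral RNA, rose by 4.18 in TLR4-/- and 2.87 in wild type. Oasl2, of the antiviral oligoadenylate synthetase family, rose by 3.77 and 2.48. Of 9 measured GAS targets, 2 rose in TLR4-/- (Cd274, the checkpoint ligand PD-L1, by 1.21, and Tap1, a peptide transporter, by 0.77) and 3 rose in wild type (Cd274 by 1.17, the GTPase Gbp3 by 0.85 and Tap1 by 0.79). Gbp3 differed by 0.48 in TLR4-/- (adjusted p = 0.0641). The Tap1 call in TLR4-/- did not hold with both arrays left out (adjusted p = 0.0618). The shares of all genes called higher were 5.04% in TLR4-/- and 6.15% in wild type, and those called lower 3.13% and 3.63%. Of 12 STAT3 targets, 9 had a mean over the arrays above background. In TLR4-/- 2 of the 12 rose (Pim1, a survival kinase, by 0.95 and Hif1a, the hypoxia factor, by 0.86). In wild type 3 rose (Bcl6 by 0.87, Bcl3 by 0.68 and Hif1a by 0.67) and Cebpd, a transcription factor, fell by 0.67. In TLR4-/- these differed in the same direction without passing the test, Bcl6 by 0.49, Bcl3 by 0.45 and Cebpd by -0.54 (adjusted p = 0.170, 0.206 and 0.0554). The difference of the changes between genotypes was called for 0 of the 9 GAS and 0 of the 12 STAT3 targets. At an unadjusted p under 0.05 there were 0 and 0, beside 3.82% of all genes. Pim1 in wild type (0.56, adjusted p = 0.0612) was called with both arrays left out (0.68, adjusted p = 0.0399). The list medians were 0.32 and 0.09 for the GAS targets and 0.24 and 0.16 for the STAT3 targets in TLR4-/- and wild type.

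**Figure D4:**
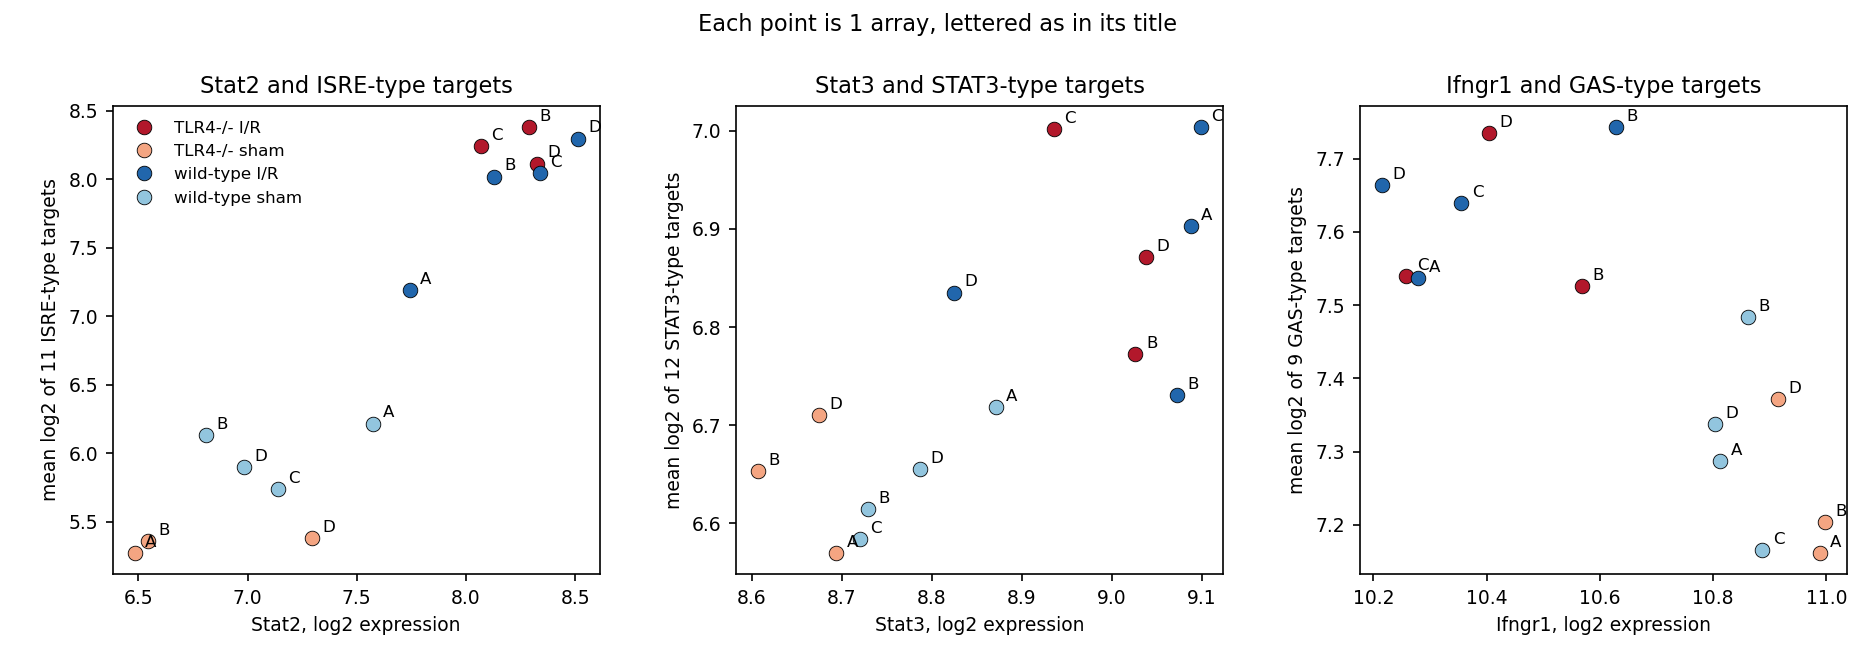
Mean log2 expression of the ISRE, STAT3 and GAS target lists (vertical axes) against Stat2, Stat3 and Ifngr1 (horizontal axes) on each of the 14 arrays, lettered as in the titles and coloured by group. TLR4-/- sham array D has a Stat2 of 7.29 with ISRE targets at 5.38, and wild-type I/R array A is the lowest I/R array for both (7.74 and 7.19).

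Array by array, the mean of the ISRE targets was 8.11 to 8.38 in TLR4-/- I/R, 5.27 to 5.38 in TLR4-/- sham, 7.19 to 8.30 in wild-type I/R and 5.74 to 6.21 in wild-type sham. Stat2 did not track them on every array. TLR4-/- sham array D had a higher Stat2 (7.29) than wild-type sham arrays B, C and D (6.81, 7.14 and 6.98), yet its ISRE targets (5.38) were below theirs (6.13, 5.74 and 5.90). Within wild type, I/R array A had the lowest Stat2 of its group (7.74), and its ISRE targets were also lowest (7.19). Wild-type sham array A, a separate sample, had the highest Stat2 of its group (7.57) and the highest ISRE targets (6.21).

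Markers of the sorted cells and of others moved with surgery. The mean of 9 microglia markers was 10.77 in TLR4-/- I/R against 11.10 in TLR4-/- sham, and 10.77 in wild-type I/R against 11.11 in wild-type sham, and 4 and 6 of the 9 fell in TLR4-/- and wild type. Of these, the TLR4-/- call of Cx3cr1, the fractalkine receptor, did not hold with both arrays left out (adjusted p = 0.107). They stayed far above background in every group. The mean of 9 monocyte markers was 6.19 to 6.36 in TLR4-/- I/R against 4.74 to 4.95 in TLR4-/- sham, and 6.27 to 6.90 in wild-type I/R against 4.95 to 5.18 in wild-type sham, and 5 and 6 of them rose. In TLR4-/- and wild type, Vim rose by 2.91 and 3.20, S100a4 by 1.48 and 1.27, Ms4a4c by 2.89 and 2.66, Cd44 by 1.35 and 1.59 and Plac8 by 3.52 and 2.59. Chil3 was called higher in wild type (adjusted p = 0.0249), with means below background in all 4 groups. F13a1 averaged 7.10 in TLR4-/- I/R against 6.97 in TLR4-/- sham and 7.75 in wild-type I/R against 7.62 in wild-type sham. Neither F13a1 nor Vcan was called in either genotype. Ccr2, the chemokine receptor of monocytes, averaged 5.55 in TLR4-/- I/R against 5.77 in TLR4-/- sham and 6.34 in wild-type I/R against 5.94 in wild-type sham, was not called in either genotype, and did not overlap between the wild-type groups. The part of either list in the changes of Stat2, Ifngr1 and Stat3 was not tested. The group means of 8 neutrophil markers were 3.52 to 3.70, with 0 or 1 of the 8 above background. Cxcr2, below background in all groups, was the 1 neutrophil marker called, higher in wild type (adjusted p = 0.0436, and 0.0984 with both arrays left out). The group means of 7 T and NK cell markers were 3.71 to 3.90, with 2 or 3 of the 7 above background. Means for astrocyte, neuron, oligodendrocyte and endothelial markers differed by no more than 0.28 between I/R and sham of a genotype, but single markers moved in both directions. The astrocyte transporter Slc1a3 fell by 0.75 in TLR4-/- and 0.72 in wild type. Aldoc, another astrocyte marker, averaged 5.87 in wild-type I/R against 7.24 in wild-type sham, and 6.74 in TLR4-/- I/R against 6.56 in TLR4-/- sham. In wild type Aldoc was not called by limma (adjusted p = 0.126), but was with both arrays left out (-1.79, adjusted p = 0.033). The endothelial adhesion molecule Pecam1 fell by 1.09 in TLR4-/- and 0.93 in wild type. Of the other endothelial markers, Cdh5 differed by 0.48 in TLR4-/- (adjusted p = 0.115) and rose by 0.67 in wild type. Flt1, below background in both sham groups, was called higher in wild type (adjusted p = 0.0431, and 0.0764 with both arrays left out). No neuron or oligodendrocyte marker was called by limma in either genotype (0 at an unadjusted p under 0.05). The mean of 5 division genes (Mki67, Top2a, Cdk1, Bub1 and Ttk), all of which rose in both genotypes, differed by 3.02 and 3.55.

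Likeness was measured as Pearson r over the 14 arrays with genes above background. These arrays form I/R and sham clusters, so a gene that differs by surgery correlates with others that do, and r is given as a description. Stat2 was most like Adar (0.964), which edits double-stranded RNA, Parp9 (0.960), an interferon-induced ADP-ribosyl transferase partner, and Rpe (0.959), a pentose phosphate enzyme. Ifngr1 was most like Entpd1 (0.969), an ATP-splitting surface enzyme of microglia, Tgfbr1 (0.966), a TGF-beta receptor chain, and Rtn1 (0.964), a reticulon, each of which fell in both genotypes, by 0.57 to 0.76. Stat3 was most like the division genes Cenpn (0.933) and Ect2 (0.913) and the gene D17H6S56E-5 (0.912).

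The members that were not called had other neighbours. Jak1 was most like Gatad2b (0.953), Cul1 (0.917) and Tab2 (0.904), and Jak2 was most like Lztfl1 (0.912). Ifnar1 was most like Appl1 (0.919), Socs6 (0.916) and Yme1l1 (0.882), and Ifnar2 was most like Sgce (0.932), Tbp (0.926) and Bbs9 (0.925). For Ifngr2 the closest gene was 1700123O20Rik (0.881), for Tyk2 Anapc2 (0.841) and for Socs1 Il31 (0.893). Among the members themselves, Stat2 and Stat3 had r = 0.810 over the 14 arrays, Stat2 and Ifngr1 -0.859, and Ifngr1 and Ifngr2 -0.364.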

How the data were processed

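RNA of sorted microglia was measured on 14 Affymetrix Mouse Gene 1.0 ST arrays. The deposited values are log2 expression made by the authors with RMA in the oligo package, per the submitters' processing notes, with versions not given in the sources used here. Of 35556 rows, 21789 carried 1 gene symbol, and the row with the highest mean stood for each of 19938 genes. No further normalization was applied. The background level is the 95th percentile of 1027 olfactory receptor genes (4.67), and 12533 genes lay above it. Arrays have no read depth, and their number limits the precision.

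A linear model with 4 group means over the 14 arrays was fitted in limma 3.58.1 under R 4.3.3 (lmFit, eBayes) and was tested on simulated data. P-values were adjusted by Benjamini-Hochberg over all genes and called under 0.05. Comparisons, 6 in all, set I/R against sham within each genotype, took the difference and the mean of those changes, and set TLR4-/- against wild type after each surgery. The members and lists were chosen with earlier results of these data known. All members are named. From other lists up to 6 called genes per comparison were named, by smallest p, with Irf9, Socs3 and Usp18 whatever their p, and likeness names up to 3 genes per member with the highest r. Ifnb1, Ifng, Ccr2, F13a1, Vcan, Aldoc, Il21r and Il10rb, and values of a gene in the genotype in which it was not called, were added after the values were seen. Promoters came from RefSeq (GRCm38.p6). The alternatives were the replicate block, median centring, a background filter, trended robust variance, array weights, the mean of a gene's rows, the compared groups alone and leaving out arrays. Leaving out 2 arrays together was chosen after the data were seen.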

Additional observations from a re-analysis of the deposited data

Results flagged for a closer look

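In 20 sets of 4 wild-type arrays (10 members in each wild-type group), 2 had an array far from the other 3 by Dixon's gap test. Chance marks about 1 in 20 such sets. Jak2 read 7.65 on wild-type sham array D, against 8.20 to 8.23 on the other 3 arrays of that group. Stat3 read 8.82 on wild-type I/R array D, against 9.07 to 9.10 on the other 3 arrays. The TLR4-/- groups, with 3 arrays each, were not tested. Without wild-type I/R array D the Stat3 difference between I/R and sham in wild type was 0.31 (adjusted p = 0.0683), against 0.24 (adjusted p = 0.123) with it.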

How the results depend on the processing

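Across the alternatives, 1296 of 1300 differences of single members kept their side of the threshold. Of the others, 3 came to pass it (Jak1) and 1 no longer passed it (Ifngr1). These 1300 are not all separate checks. No member had more than 1 row, so the mean of a gene's rows left its values unchanged. Leaving out an array of a group not compared changed no difference in size, and neither did the trended robust variance. The sign changed in 96 of the 1300, spread over 29 of 60 differences, of which 0 were called in either setting. Those differences were at most 0.11 in size as reported and 0.13 after the change of sign, so their direction is not settled (Ifnar1, Jak2 and Socs1 after I/R are among them). For I/R against sham in TLR4-/- the number of members called ranged from 1 to 2 when each array was left out in turn, and was 1 without TLR4-/- I/R array C, where Ifngr1 missed the threshold (-0.48, adjusted p = 0.0509). Under all other alternatives tried it was 2 in each genotype, 0 for the genotype comparisons and for the difference of changes, and 3 for the mean of both, except for 4 in the 3 settings given above in which Jak1 was also called. Over all genes, 1628 were called for I/R in TLR4-/-, against 970 without TLR4-/- sham array A and 1071 without TLR4-/- I/R array C. Between genotypes 4 genes were called after I/R (0 to 7 over the alternatives, 0 with the replicate block) and 1 after sham (0 to 10, the highest without wild-type sham array C). With the replicate block (letters A to D), 2, 2 and 3 members were called in TLR4-/-, in wild type and for the mean of both, and 0 in the others, so no call of a member changed. In deviations from the group means, 3 of 18 same-letter pairs of arrays correlated above 0.1 (median 0.04, highest 0.28). Of 55 pairs of different letters 6 did (median -0.01, highest 0.24). Whether the letters pair the samples is not settled by these values. The fit to the compared groups alone was not run for the difference or the mean of genotypes, which need all arrays. Precision is limited by 3 or 4 arrays per group, and signal below 4.67 was taken as background.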
